A study of Mus musculus with 4 samples.

Results

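Postmitotic glutamatergic neurons were taken from single-cell profiles of the dorsal ventricular-subventricular zone (V-SVZ), a germinal region along the lateral ventricle that keeps producing neurons after birth. A cell was a member when it held at least 1 UMI (unique molecular identifier, a counted mRNA molecule) of Dcx and at least 1 UMI each of 2 or more of Neurod1, Neurod2, Neurod6, Tbr1 and Slc17a6. It also had to lack any UMI of the division genes Mki67 and Top2a, of the GABA synthesis genes Gad1 and Gad2, and of Olig1 and Olig2. The rule found 247 cells among the 19857 cells with 2000 to 8000 detected genes and under 10% mitochondrial UMIs. These 12 genes chose the cells, so their levels are given as a description and were left out of every test.

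The tissue came from OF1 mice at postnatal day 2 (P2), P12 and P22, with 1 library at P2, 2 at P12 and 1 at P22. No allele, transgene or treatment is named for any sample. By the study's methods, 2 mice were pooled for each time point, the tissue was digested with papain and viable cells were sorted. The labels give males at every age, whereas the methods include a female at P2. The P2 and P22 libraries stand for 1 pool each, so the spread between animals within those ages was not measured.

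Glutamatergic neurons of the forebrain arise in the embryonic pallium through a relay of transcription factors. Neurog2 and Eomes (Tbr2) mark committed progenitors and newborn cells, Neurod1 follows, and Tbr1, Neurod2 and Neurod6 mark neurons that have left the cycle. Slc17a6 encodes VGLUT2, a vesicular glutamate transporter of many immature glutamatergic neurons, and Dcx encodes doublecortin, a microtubule protein of migrating neurons. In the postnatal V-SVZ, GABAergic neuroblasts bound for the olfactory bulb are the main neuronal output.

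Members were split into Neurod6 cells, with at least 1 UMI of Neurod6, and Slc17a6 cells, with Slc17a6 and no Neurod6. The promoters of both genes, and of Neurod2, another gene of the rule, are shown so that the starts of these genes can be read. Neurod2 lies on chromosome 11 from 98325415 to 98329648 and Neurod6 on chromosome 6 from 55677822 to 55681263, both on the minus strand, and Slc17a6 lies on chromosome 7 from 51622006 to 51671119 on the plus strand (GENCODE gene models, GRCm38). Each window runs from 250 bases before to 50 bases after a RefSeq start site (GRCm38.p6), 5′ to 3′ on the gene's strand. Capitals mark E-boxes, the letters CANNTG that basic helix-loop-helix factors of the Neurod and Neurog kind bind.
Neurod2, chr11:98329596-98329895, minus strand: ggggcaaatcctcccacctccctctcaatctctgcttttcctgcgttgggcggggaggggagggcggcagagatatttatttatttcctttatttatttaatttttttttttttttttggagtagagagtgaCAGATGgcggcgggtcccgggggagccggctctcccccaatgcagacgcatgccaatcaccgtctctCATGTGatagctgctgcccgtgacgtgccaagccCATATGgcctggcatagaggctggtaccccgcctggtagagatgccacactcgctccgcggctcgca
Neurod6, chr6:55681214-55681513, minus strand: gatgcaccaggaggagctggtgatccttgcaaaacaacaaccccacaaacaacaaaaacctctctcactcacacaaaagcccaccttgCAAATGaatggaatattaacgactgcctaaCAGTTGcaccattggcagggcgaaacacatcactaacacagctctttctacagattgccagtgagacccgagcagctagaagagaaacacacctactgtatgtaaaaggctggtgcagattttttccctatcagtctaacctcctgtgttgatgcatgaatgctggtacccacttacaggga
Slc17a6, first start site, chr7:51621580-51621879, plus strand: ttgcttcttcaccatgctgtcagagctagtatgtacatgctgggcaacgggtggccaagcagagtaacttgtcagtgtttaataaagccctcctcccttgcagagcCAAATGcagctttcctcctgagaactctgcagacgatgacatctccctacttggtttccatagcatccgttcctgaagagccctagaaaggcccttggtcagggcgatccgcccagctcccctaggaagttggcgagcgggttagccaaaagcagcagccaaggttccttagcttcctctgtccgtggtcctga
Slc17a6, second start site, chr7:51624387-51624686, plus strand: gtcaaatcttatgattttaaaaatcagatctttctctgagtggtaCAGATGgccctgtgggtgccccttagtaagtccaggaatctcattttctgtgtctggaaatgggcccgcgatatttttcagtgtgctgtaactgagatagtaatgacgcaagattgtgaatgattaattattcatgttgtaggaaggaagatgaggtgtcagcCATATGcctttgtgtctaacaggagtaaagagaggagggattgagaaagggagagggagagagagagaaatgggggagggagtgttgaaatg

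The Neurod2 window held 3 E-boxes, the Neurod6 window 2, the first Slc17a6 window 1 and the second 2. CANNTG, which reads the same on both strands, is present in 72.3% of the 32851 RefSeq mouse promoters of the same length, so its presence sets none of these windows apart. The CAGATG form, searched on both strands and contained in CANNTG, occurs in 17.2% of them and was found in the Neurod2 window and in the second Slc17a6 window. These matches describe letters and not binding.

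Glutamatergic neurons were a sizeable share of cells at P2 and rare afterwards. They numbered 197 of 4027 cells at P2 (4.89%, exact 95% binomial interval 4.246 to 5.604), 17 of 7004 in P12 replicate 1 (0.243%, 0.141 to 0.388), 1 of 4596 in P12 replicate 2 (0.0218%, 0.000551 to 0.121) and 32 of 4230 at P22 (0.757%, 0.518 to 1.07). The interval at P2 lay above all others, and the intervals of the 2 P12 replicates did not overlap. Thinning every cell to 5000 UMIs gave 5.32%, 0.318%, 0.0221% and 0.621% in the same libraries. Intervals cover counting error only, and with 1 library at P2 and 1 at P22 a test between ages was not made.

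**Figure D1:**
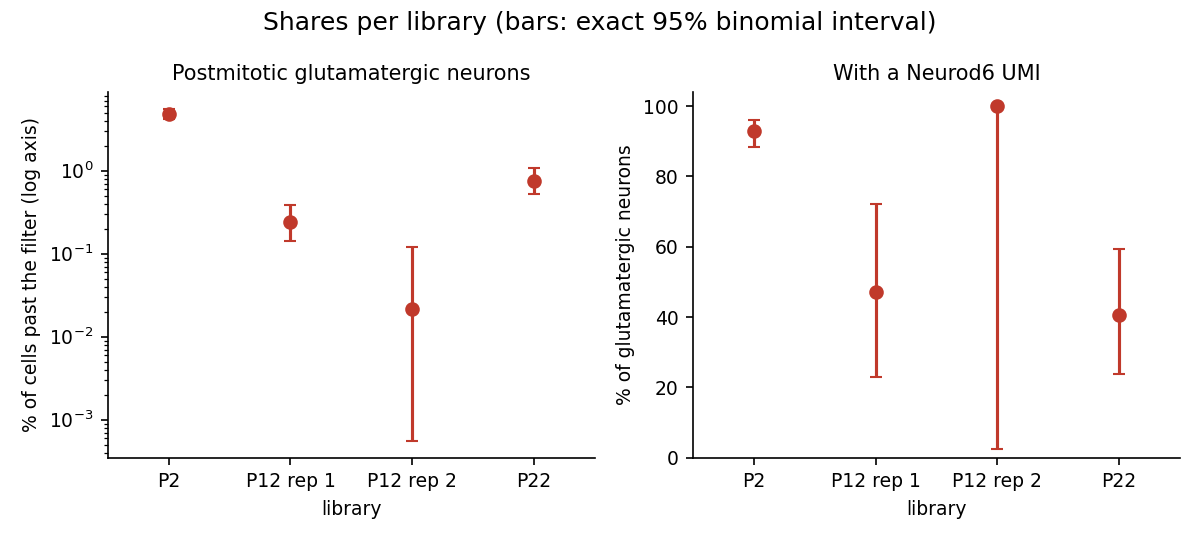
Left, glutamatergic neurons as a percentage of cells past the filter in each library, on a log axis; right, the percentage of those neurons with a Neurod6 UMI. Points are single libraries and bars are exact 95% binomial intervals; the share was 4.89% at P2 and at most 0.757% in the other libraries, and the Neurod6 share was 92.9% at P2, 47.1% in P12 replicate 1 and 40.6% at P22.

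The order of the ages changed when the neurons were counted against other cells of their lineages. GABAergic cells here are postmitotic cells with Dcx and Gad1 or Gad2, no division or Olig gene and under 2 of the 5 glutamatergic genes. Glutamatergic neurons made up 12.3% (10.8 to 14.1) of the 1596 neurons of both kinds at P2, 23.6% (14.4 to 35.1) of 72 in P12 replicate 1, 1 of 8 in P12 replicate 2 and 3.07% (2.11 to 4.31) of 1042 at P22. Both P12 libraries held few neurons of either kind, whereas P22 held 1010 GABAergic cells. Set against dividing cells with an Eomes UMI, there were 197 neurons beside 31 progenitors at P2, 17 beside 192 in P12 replicate 1, 1 beside 166 in P12 replicate 2 and 32 beside 32 at P22.

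How many members sat at the edge of the rule differed between the libraries. Just inside it, 11 members held exactly 2 of the 5 glutamatergic genes and 17 held exactly 1 Dcx UMI. The 11 were 2 of 197 members at P2, 5 of 17 in P12 replicate 1, the 1 member of P12 replicate 2 and 3 of 32 at P22. Just outside, 14 cells held Dcx and 1 of the 5 genes, and 3 cells held 2 or more of them without Dcx. A division gene alone kept out 114 cells, 26 at P2, 40 and 44 in the P12 libraries and 4 at P22. In both P12 libraries these cells outnumbered the members. An Olig gene alone kept out 34 cells, and a Gad gene beside the glutamatergic genes was seen in 72 cells. Requiring 3 of the 5 genes and 2 Dcx UMIs kept 183, 12, 0 and 26 members at P2, in P12 replicates 1 and 2 and at P22.

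The libraries held 65323423 to 106402687 UMIs, with medians of 11853.5 to 14303 UMIs per cell past the filter. The median member held 11789 UMIs at P2, 13347 in P12 replicate 1 and 9497.5 at P22, and the single member of P12 replicate 2 held 19580. Pairs of libraries shared 3 to 8 cell barcodes, none of them a member's. The doublet caller Scrublet called 1 member, a Neurod6 cell at P22, and it marked only 0.0653% of the cells of P12 replicate 2, too few to count as working there.

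The name of the cells was checked against markers of other cell types. Each list was summed over the members in CPM, the class's UMIs scaled to the same total in every library. None of these lists covered Eomes progenitors, and the members' levels of Eomes and Neurog2 are given further below. The 13 genes of GABAergic neuroblasts summed to 2421 CPM at P2, 1797 CPM in P12 replicate 1 and 1786 CPM at P22, against 6436, 7755 and 6887 CPM in GABAergic cells. Nearly all of the members' sum was Meis2, at 2365, 1658 and 1712 CPM, a gene that GABAergic cells also held at 1882, 2791 and 1758 CPM. Slc32a1, the vesicular GABA transporter, had 2 UMIs in all members. The 6 microglial genes summed to at most 5.51 CPM and the 9 vascular and blood genes to at most 11.03 CPM in these 3 libraries, with Kdr, Cdh5, Flt1, Csf1r and Cx3cr1 at 0. The 6 ependymal genes summed to at most 13.8 CPM, with Tmem212, Ccdc153 and Ak7 at 0, and the 6 oligodendroglial genes to 24.95, 25.24 and 154 CPM, with Cspg4 at 0.

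Stem cell and astrocyte genes stood apart, with more at the later ages in both kinds of neuron. Their 12 genes summed to 104 CPM at P2, 749 CPM in P12 replicate 1 and 1238 CPM at P22 in members, against 308, 1811 and 603 CPM in GABAergic cells. Of the 12, Thbs4 was at 0 in the members of P2 and P22, and S100b in those of P12 replicate 1 and P22. When cells in the top 5% of doublet scores were removed, 1 member was lost at P2 and 1 at P22, and the sums were 97.1, 749 and 298 CPM. One cell thus carried most of the astroglial signal of the P22 members, and results that rest on it are given with and without it. The part of RNA from other cells in the P12 sums was not tested.

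The composition of the rule genes differed between the ages. All 5 glutamatergic genes were detected in 110 of 197 members at P2, in 0 of 17 in P12 replicate 1 (a count of 0 allows up to 17.6%) and in 6 of 32 at P22. Neurod2 was detected in 189 members at P2, 1 in P12 replicate 1 and 13 at P22, at 741, 21.0 and 105 CPM. Neurod6 was detected in 183, 8 and 13 members of these libraries, at 621, 96.8 and 105 CPM. Both of these genes of settled postmitotic neurons were thus common at P2 and at lower levels later, with Neurod2 rarer than Neurod6 in P12 replicate 1.

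The other 3 rule genes varied less between the ages. Tbr1, a T-box factor of newborn glutamatergic neurons, was at 241 CPM at P2, 181 CPM in P12 replicate 1 and 276 CPM at P22. Neurod1 was at 432, 198 and 455 CPM, and Slc17a6 at 177, 244 and 289 CPM, in the same libraries. After thinning to 5000 UMIs, the share of members with a Slc17a6 UMI was 55.3%, 52.9% and 62.5%, whereas for Neurod2 it was 90.9%, 5.88% and 37.5%. In 86 microglial and endothelial cells at P22, with a median of 9342 UMIs, none had a UMI of Neurod1, Neurod2, Neurod6 or Slc17a6 (a count of 0 allows up to 3.49%), and 1 had Tbr1.

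The Neurod6 share of members was 92.9% (88.4 to 96.1) at P2, 47.1% (23.0 to 72.2) in P12 replicate 1 and 40.6% (23.7 to 59.4) at P22, and the 1 member of P12 replicate 2 was a Neurod6 cell. In numbers there were 183, 8, 1 and 13 Neurod6 cells and 10, 8, 0 and 19 Slc17a6 cells, and 5 members had neither gene. Most Neurod6 cells also held Slc17a6, with 144 of 183 at P2, 5 of 8 in P12 replicate 1 and 10 of 13 at P22. The split therefore separates cells with Neurod6 from cells without it, and not the use of 2 different transporters. Thinned to 5000 UMIs, the Neurod6 share was 85.4%, 40.9% and 30.8% at P2, in P12 replicate 1 and at P22.

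**Figure D2:**
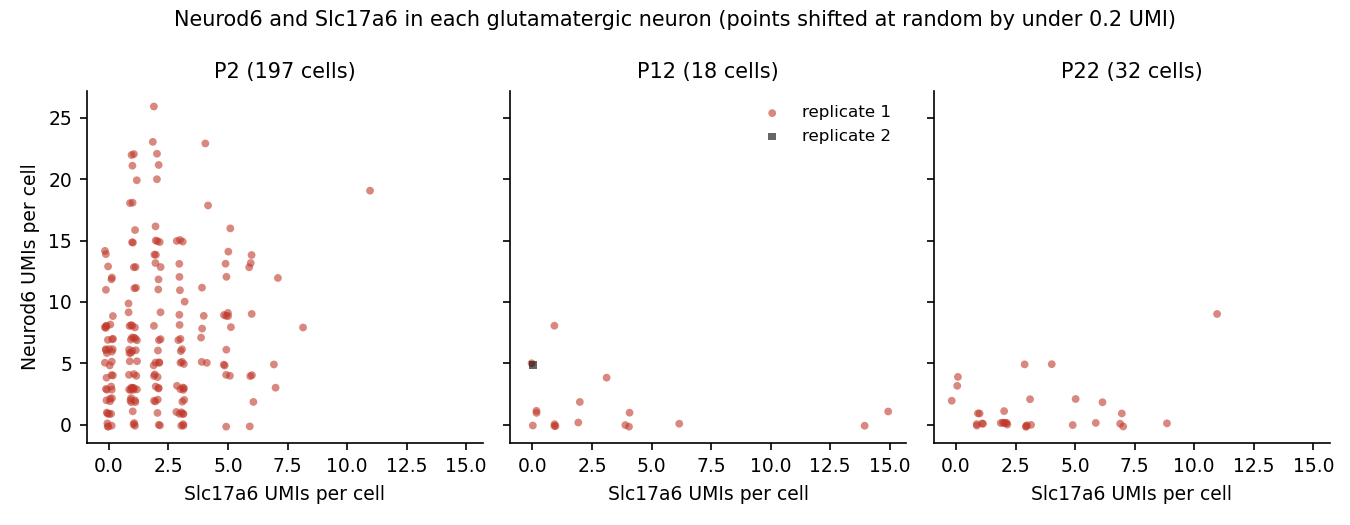
UMIs of Slc17a6 (horizontal) and of Neurod6 (vertical) in each glutamatergic neuron at P2 (197 cells), P12 (18 cells) and P22 (32 cells); each point is 1 cell. At P2 most cells lie away from both axes, with both genes in 144 cells, and at P22 10 cells hold both.

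Subtypes of cortical neuron could be looked for with genes that the rule did not use. Bcl11b, a factor of deep-layer neurons that many GABAergic neurons also express, was detected in 68 members at P2, 1 in P12 replicate 1 and 2 at P22, and Bhlhe22, a factor of postmitotic cortical neurons, in 160, 2 and 8. Both were mostly detected in P2 cells. Among genes of other glutamatergic fates, Slc17a7 (VGLUT1) was found in 3 members at P2, Tbx21, a factor of olfactory bulb projection neurons, in 2 at P2, and Slc17a8, Lhx1 and Trp73 in none. Reln, which Cajal-Retzius cells secrete, was found in 4, 3 and 1 members.

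Eomes ran the other way. It was detected in 103 of 197 members at P2, 17 of 17 in P12 replicate 1 and 30 of 32 at P22, at 163, 1001 and 645 CPM. After thinning the shares were 39.1%, 94.1% and 90.6%, against 1.57%, 1.82% and 1.78% of GABAergic cells. Neurog2, the proneural factor upstream of Eomes, was detected in 20, 12 and 18 members, and Neurod4 in 6, 11 and 13. Nearly every later member thus held Eomes, and the P2 members were divided between cells with and without it. Eomes and Neurog2 also mark committed progenitors, so for the later members the name neuron rests on the rule. Whether they had left the cycle was not tested.

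The P2 neurons were themselves mixed. Of the 197 P2 members, 103 held Eomes and 94 did not. Rbfox1, a splicing regulator of maturing neurons, was at 252 CPM with Eomes and 417 CPM without, and Stmn2, a microtubule regulator of growing axons, at 929 and 1307 CPM. Calb2, the calcium-binding protein calretinin, was detected in 40 of the 103 cells with Eomes and in 29 of the 94 without it. Its level was 635 CPM with Eomes and 314 CPM without. Median depth was 12090 UMIs in cells with Eomes and 10739.5 in those without. Cells of 1 library are no replicates, so these values have no test.

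The single member of P12 replicate 2 resembled the other P12 cells. It held 12 UMIs of Dcx, 5 of Neurod6, 2 of Tbr1, 33 of Eomes, 16 of Neurog2, 8 of Neurod4 and 10 of Emx1. Neurod1, Neurod2, Slc17a6, Bhlhe22, Calb2 and Rbfox1 had none. It enters no test.

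The first comparison set glutamatergic neurons against GABAergic cells of the same libraries. Members had 419 genes higher and 421 lower of 10377 tested (8.09% called; 4.04% higher and 4.06% lower), by edgeR's quasi-likelihood test on UMI sums of P2, P12 replicate 1 and P22 with the library as block. Higher calls were made for 10 of 17 lineage factors and 14 of 27 migration and guidance genes (5 lower), and lower calls for 12 of 21 genes of the immature neuronal cytoskeleton. The classes were drawn with glutamatergic and GABAergic genes, so genes that follow those, such as Dlx5, had to differ. The number of calls was 524 without P2, 1536 without P12 replicate 1 and 538 without P22.

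Of 17 lineage factors tested, 10 were higher in members and 0 lower, with a median log2 difference of 2.66 beside -0.03 over all genes. Bhlhe22 was at 325, 21.0 and 41.4 CPM in members at P2, in P12 replicate 1 and at P22, against 0.816, 0 and 0.100 CPM in GABAergic cells (log2 difference 8.42 ± 0.33 SE, adjusted p = 1.95e-06). Eomes was at 163, 1001 and 645 CPM in members, against 2.13, 1.35 and 4.21 CPM (6.83 ± 0.35, adjusted p = 7.44e-06). The classes did not overlap for either gene, and the levels moved in opposite directions with age. Neurod4, a proneural factor, was at 4.30, 139 and 102 CPM in members, against 0, 0 and 0.301 CPM, a pooled ratio of 243 (exact 95% interval 80.2 to 1203). Emx1, the pallial homeobox factor, was at 193, 92.6 and 127 CPM in members, against 1.69, 4.05 and 1.10 CPM (6.45 ± 0.34, adjusted p = 8.48e-06). Its level varied little with age beside its distance between the classes. Lhx2, another pallial factor, was at 759, 581 and 684 CPM, against 12.8, 49.98 and 16.9 CPM (4.93 on the log2 scale).

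Of 13 upper-layer genes tested, 7 were higher and 2 lower (Mef2c and Lmo4). Unc5d, a netrin receptor of migrating cortical neurons, was at 335, 349 and 212 CPM in members, against 9.72, 5.40 and 4.61 CPM in GABAergic cells (log2 difference 5.20 ± 0.22, adjusted p = 2.30e-06). Pou3f1, a POU factor of upper-layer neurons, was at 223, 67.3 and 110 CPM, against 24.5, 13.5 and 3.31 CPM (3.47 ± 0.39, adjusted p = 0.000823). Both were higher in members of every library. Deep-layer genes were split, with 3 of 10 higher and 3 lower. Fezf2, a factor of subcerebral projection neurons, was at 18.1, 33.7 and 38.6 CPM in members, against 3.32, 10.8 and 7.12 CPM (2.12 ± 0.36, adjusted p = 0.00665). Bcl11b was at 55.5, 4.21 and 5.51 CPM, against 274, 162 and 148 CPM (-3.09 ± 0.38, adjusted p = 0.00125), lower in members of every library.

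Of 27 migration and guidance genes, 14 were higher and 5 lower, with a median log2 difference of 1.15. Sema3c, a secreted semaphorin, was at 464, 324 and 411 CPM in members, against 10.0, 14.9 and 9.52 CPM in GABAergic cells (log2 difference 5.15). Nrp1, a semaphorin receptor, differed by 4.88 and Sstr2, a somatostatin receptor, by 6.03 ± 0.62 (adjusted p = 0.000496), with Sstr2 at 256, 189 and 386 CPM in members, against 8.91, 1.35 and 0.902 CPM. Rnd2 and Rnd3, a pair of small GTPases that act in cortical neuron migration, were split between the classes. Rnd2 was at 495, 530 and 529 CPM in members, against 67.8, 49.98 and 73.3 CPM, and Rnd3 at 36.1, 37.9 and 138 CPM, against 485, 509 and 583 CPM (log2 differences 2.84 and -3.28). Prokr2, the prokineticin receptor that guides neuroblasts to the olfactory bulb, had 1 UMI in members, against 144, 186 and 38.8 CPM in GABAergic cells, a pooled ratio of 309 (55.4 to 12217).

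Of 21 cytoskeleton genes, 12 were lower and 0 higher, with a median log2 difference of -0.85. Stmn2 was at 1101, 33.7 and 419 CPM in members, against 2950, 2205 and 3111 CPM in GABAergic cells (log2 difference -3.10 ± 0.60, adjusted p = 0.0128, and 0.0632 without P22). Map1b, a microtubule-associated protein of growing axons, was at 589, 88.4 and 185 CPM, against 1507, 1544 and 1557 CPM (-2.82 ± 0.43, adjusted p = 0.00393). In both genes the gap was largest in P12 replicate 1. Of 26 synapse genes, 1 was higher and 4 lower. Nrxn3, a presynaptic adhesion molecule, was at 7.74, 63.1 and 24.8 CPM in members, against 741, 978 and 1109 CPM (-5.63 ± 0.43, adjusted p = 9.03e-05), and Cplx2, a complexin of vesicle release, was the one higher, by 1.73 on the log2 scale.

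Of 12 transporters and glutamate receptors tested, 0 were higher and 3 lower. Grm5, a metabotropic glutamate receptor, had no UMI in members, against 54.3, 23.0 and 9.22 CPM in GABAergic cells, at least 35.7-fold lower in members with a floor of 3 counts over the class. Grik3, a kainate receptor subunit, was 25.02-fold lower (6.89 to 207) and Gria4, an AMPA receptor subunit, differed by -4.23 ± 0.62 (adjusted p = 0.00316). Gria2, the AMPA receptor subunit that limits calcium entry, was at 1140, 408 and 521 CPM in members, against 473, 1047 and 404 CPM, and was not called. Its order between the classes turned round in P12 replicate 1. The channel genes were split, with 3 of 17 higher and 3 lower. Kcnq3, an M-current channel subunit, was at 40.9, 29.5 and 16.5 CPM in members, against 4.89, 4.05 and 3.41 CPM (2.66 ± 0.38, adjusted p = 0.00259).

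Adhesion genes fell on both sides, with 7 of 30 higher and 9 lower. Cdh10, a type II cadherin, was at 176, 164 and 229 CPM in members, against 3.45, 12.2 and 2.81 CPM in GABAergic cells (log2 difference 5.46 ± 0.37, adjusted p = 4.21e-05). Ncam2, a neural cell adhesion molecule, was at 0.430, 8.41 and 5.51 CPM, against 40.0, 40.5 and 14.4 CPM (-4.26 ± 0.74, adjusted p = 0.00746). Of 15 neuronal RNA-binding genes 3 were higher and 1 lower, led by Rbfox3, the antigen NeuN of neuronal nuclei. Rbfox3 was at 117, 231 and 193 CPM in members, against 29.1, 28.4 and 8.92 CPM (2.89 ± 0.40, adjusted p = 0.00227).

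A pair of neurexophilins, secreted ligands of neurexins, parted the classes. Nxph3 was at 133, 42.1 and 57.9 CPM in members, against 0.251, 0 and 0.100 CPM in GABAergic cells (log2 difference 8.76 ± 0.38, adjusted p = 2.50e-06), whereas Nxph1 was lower by a pooled ratio of 103 (28.4 to 849). Nrn1, the neurite growth factor neuritin, was at 172, 236 and 339 CPM, against 1.25, 0 and 1.20 CPM (7.44 ± 0.31, adjusted p = 2.30e-06). Kctd4 was at 293, 63.1 and 168 CPM, against 3.07, 8.10 and 1.40 CPM (6.16 ± 0.48, adjusted p = 0.000101). Nrn1 and Kctd4 belong to none of the lists.

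**Figure D3:**
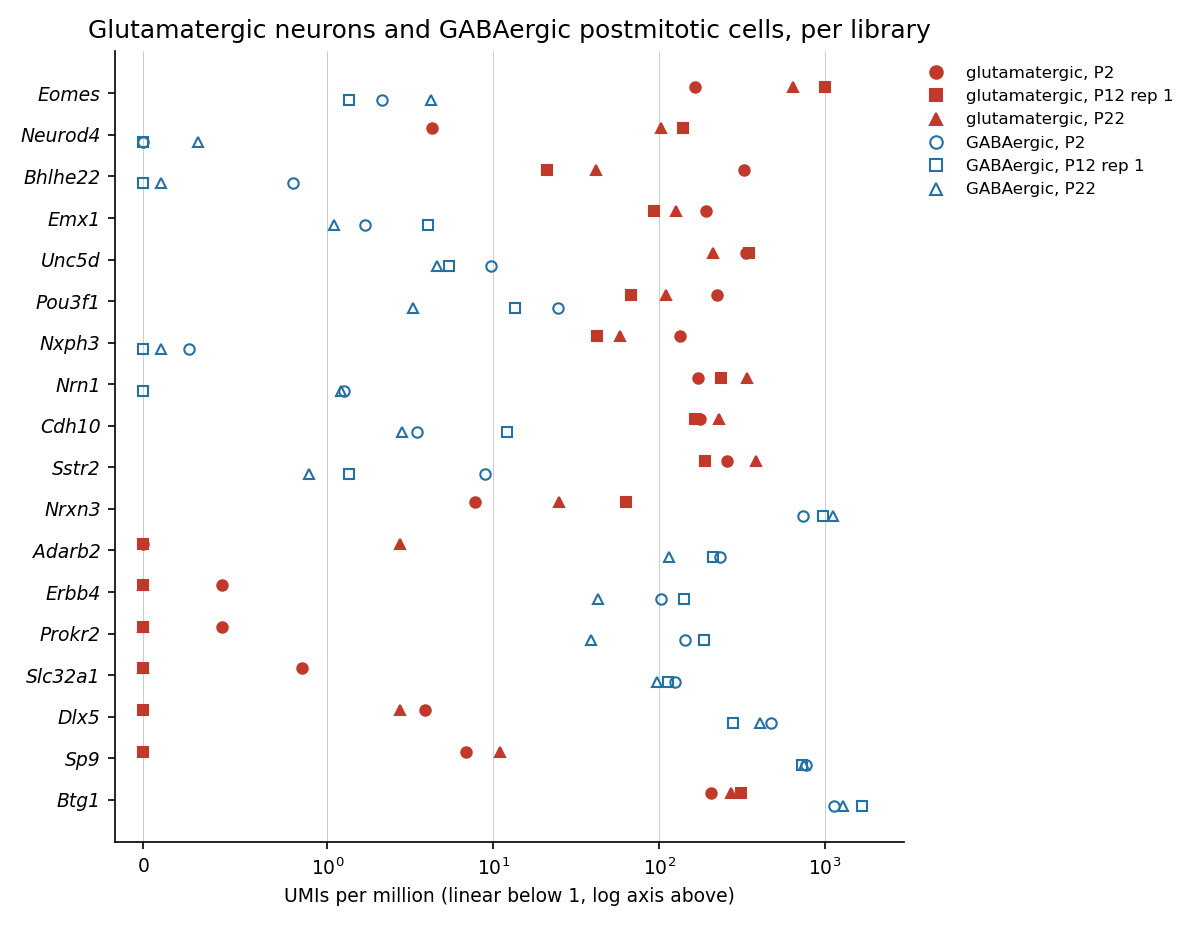
Level of 18 genes (CPM, axis linear below 1 and log above) in glutamatergic neurons (filled red) and GABAergic cells (open blue) at P2 (circles), in P12 replicate 1 (squares) and at P22 (triangles); each point is the UMI sum of 1 library. Eomes lay at 163 to 1001 CPM in glutamatergic neurons, against 1.35 to 4.21 CPM in GABAergic cells, and Nrxn3 at 7.74 to 63.1 CPM, against 741 to 1109 CPM.

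On the GABAergic side, 11 of the 12 neuroblast markers tested were lower in members, and Meis2 was the one not called. Dlx5 was at 3.87, 0 and 2.76 CPM in members, against 473, 280 and 407 CPM in GABAergic cells (log2 difference -7.21 ± 0.31, adjusted p = 2.30e-06), and Sp9, a zinc finger factor of neuroblasts, at 6.88, 0 and 11.03 CPM, against 769, 723 and 751 CPM (-6.96 ± 0.33, adjusted p = 4.19e-06). These are values the choice of cells was bound to give. Outside that list, Erbb4, the neuregulin receptor, was lower by a pooled ratio of 238 (42.7 to 9409) and Adarb2, an RNA-editing family member of interneurons, by 549 (98.6 to 21704), each with 1 UMI in the members of these libraries.

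Genes of cell cycle exit and of BMP signalling differed in single members. Of 14 cell cycle exit genes, 1 was higher and 3 lower. Btg1, an antiproliferative gene, was at 205, 311 and 273 CPM in members, against 1126, 1660 and 1275 CPM in GABAergic cells (log2 difference -2.52 ± 0.17, adjusted p = 3.89e-05), and its relative Btg2 was the one higher, by 0.88 ± 0.21 (adjusted p = 0.0364, and 0.292 without P22). Of 18 BMP and TGF-beta genes, 3 were higher and 3 lower. Id2, an inhibitor of helix-loop-helix factors, was at 679, 572 and 491 CPM in members, against 91.4, 154 and 28.9 CPM (2.83 ± 0.34, adjusted p = 0.00112), and Id4 of the same family at 32.3, 42.1 and 44.1 CPM, against 228, 390 and 394 CPM (-3.16 ± 0.20, adjusted p = 2.54e-05). The 2 Id genes thus lay on opposite sides in every library.

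Of the 11 genes that the study named in the glutamatergic lineage, a list chosen on these samples and so no independent evidence, 4 were higher and 2 lower. Ppp2r2b, a regulatory subunit of protein phosphatase 2A, was at 590, 530 and 786 CPM in members, against 48.7, 48.6 and 13.8 CPM in GABAergic cells (log2 difference 4.16 ± 0.43, adjusted p = 0.000514). Id2, Zhx2 (adjusted p = 0.00945, and 0.0683 without P22) and Btg2 were the other higher genes, and Jun and Tubb3 were lower. Immediate-early genes, which respond to activity and also to dissociation, had 3 of 16 higher and 1 lower, and S phase and mitosis genes had none of 22 called, with a median of -0.30.

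The second comparison set Neurod6 cells against Slc17a6 cells within libraries, which only P2 and P22 could enter with at least 10 cells of each. It called 7 of 3586 genes (0.195%), 6 higher (0.167%) and 1 lower (0.0279%). None of the 16 lineage factors, 9 upper-layer, 5 deep-layer, 19 migration or 13 synapse genes tested was called in this fit. Bhlhe22, one of the lineage factors, was called higher in Neurod6 cells with DESeq2 size factors (log2 difference 1.62 ± 0.39, adjusted p = 0.0125 by edgeR) and with no filter on low counts (1.68 ± 0.38, adjusted p = 0.0152), and DESeq2 did not call it. That the other genes missed the threshold, with 10 Slc17a6 cells at P2 and 19 at P22, does not show that the 2 kinds are alike. The 6 higher genes were Apoe, Sparcl1, Mt1, Mt3, Slc1a2 and Cst3, all genes of astroglia. Apoe was at 101 and 1534 CPM in Neurod6 cells at P2 and P22, against 48.6 and 260 CPM in Slc17a6 cells (log2 difference 2.42 ± 0.28, adjusted p = 9.28e-09). Without the top 5% of doublet scores, which leaves out the P22 Neurod6 cell that Scrublet called, 0 of the 7 remained and 1 other gene, Malat1, was called. The stem cell and astrocyte sum of Neurod6 cells at P22 was 2412 CPM with that cell and 370 CPM without it. Chd8, a chromatin remodeller, was the 1 lower gene, at 70.5 and 24.1 CPM, against 204 and 86.5 CPM (-1.56 ± 0.38, adjusted p = 0.0497).

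Eomes and Neurog2 were at higher levels after P2 in both kinds of cell. Eomes was at 161, 799 and 716 CPM in Neurod6 cells at P2, in P12 replicate 1 and at P22, against 243, 1194 and 585 CPM in Slc17a6 cells (log2 difference 0.01 ± 0.24, adjusted p = 0.993, not called). Neurog2 was at 27.0, 390 and 289 CPM, against 9.71, 357 and 321 CPM. For these genes the 2 kinds lay closer to each other at each later age than to their own level at P2. Calb2 was at 483, 223 and 60.1 CPM in Neurod6 cells, against 757, 0 and 0 CPM in Slc17a6 cells (-0.30 ± 0.31, adjusted p = 0.951, not called), and Bhlhe22 at 340, 9.30 and 36.1 CPM, against 58.3, 34.9 and 45.8 CPM. Bhlhe22 thus lay apart between the kinds at P2, where its value rests on 10 Slc17a6 cells. The Calb2 value of Neurod6 cells rests on 1 cell in P12 replicate 1 and on 2 cells at P22.

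The third comparison set the neurons against dividing progenitors with Eomes, which hold Mki67 or Top2a. Members had 752 genes higher and 1093 lower of 8514 tested (21.7% called; 8.83% higher and 12.8% lower) by edgeR, with the library as block. All 24 S phase and mitosis genes were lower, with a median log2 difference of -4.14, which follows from the choice of cells. Calls in the neuronal lists were nearly all higher. RNA-binding genes had 13 of 15 higher and 0 lower, cytoskeleton genes 16 of 21 and 0, migration genes 17 of 25 and 0, adhesion genes 14 of 21 and 0, and synapse genes 12 of 21 and 1. The median over all genes tested was 0.00.

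Among the genes higher in neurons were several of maturing neurons. Calb2 was at 489, 101 and 27.6 CPM in members at P2, in P12 replicate 1 and at P22, against 55.3, 2.98 and 0 CPM in progenitors (log2 difference 3.80 ± 0.36, adjusted p = 1.52e-06). All 24 Calb2 UMIs of the P12 replicate 1 members came from 1 cell, and the 10 UMIs at P22 from 2 cells. Scn3a, a sodium channel of immature neurons, was at 97.2, 88.4 and 88.2 CPM, against 26.8, 2.98 and 8.14 CPM (3.15 ± 0.44). Scn3a kept its level across the ages in neurons. Nos1, the neuronal nitric oxide synthase, was at 135, 84.1 and 57.9 CPM, against 35.2, 6.22 and 1.63 CPM (2.88 ± 0.39). Rbfox1 was at 327, 12.6 and 35.8 CPM, against 72.1, 2.49 and 0 CPM (2.41 ± 0.37, adjusted p = 0.000173). The P2 level of Rbfox1 in neurons lay far above the later ones.

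Robo2 and Sema3c were among the 17 of 25 migration and guidance genes higher in neurons. Robo2, a Slit receptor, was at 180, 177 and 174 CPM in members, against 60.3, 25.4 and 24.4 CPM in progenitors (log2 difference 2.25 ± 0.26, adjusted p = 9.76e-06). Sema3c was at 464, 324 and 411 CPM, against 141, 55.2 and 40.7 CPM (2.35 ± 0.24, adjusted p = 2.73e-06). Basp1, a growth cone protein from the cytoskeleton list, was at 3150, 934 and 1563 CPM, against 1213, 128 and 295 CPM (2.10 ± 0.22, adjusted p = 4.22e-06). Gria2, which did not separate members and GABAergic cells, was at 1140, 408 and 521 CPM in members, against 369, 216 and 103 CPM in progenitors (1.51 ± 0.22, adjusted p = 0.000111), one of 3 transporters and receptors higher of 6 tested.

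Some progenitor genes other than mitotic ones were also lower in neurons. Id1 was at 4.30, 58.9 and 16.5 CPM in members, against 78.8, 252 and 117 CPM in progenitors (log2 difference -3.10 ± 0.33, adjusted p = 4.77e-06), whereas Id2 was higher by 1.73 ± 0.17. Ccnd1, a G1 cyclin, was at 8.60, 42.1 and 13.8 CPM, against 117, 111 and 109 CPM (-2.99 ± 0.36). Notch1, the receptor that holds progenitors undifferentiated, was at 5.16, 126 and 30.3 CPM, against 83.8, 296 and 155 CPM (-2.44 ± 0.36). For Id1, Ccnd1 and Notch1 the members of P12 replicate 1 came nearest to the progenitors. Lineage factors had 10 of 16 higher and 2 lower, the lower ones Pax6 and Insm1. The stem cell and astrocyte markers had 9 of 11 lower, with a median of -1.91, and immediate-early genes 4 of 13 lower and 0 higher.

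The fourth comparison asked how the neurons differed with age, and set P12 replicate 1 and P22 together against P2. The later neurons had 79 genes higher and 106 lower than those of P2 of 6909 tested (2.68% called; 1.14% higher and 1.53% lower) by edgeR, in which the lone P2 library is assumed to vary like the others. Age cannot be told apart from library, animals or the mix of members with and without Eomes in this fit. Eomes was detected in 52.3% of members at P2, 100% in P12 replicate 1 and 93.75% at P22. The software version was the same at P2 and P22 and differed at P12, so it is mixed with age only there. Without the 5% highest doublet scores 88 genes were called, all of them among the 185. Of 17 lineage factors 4 were higher later and 1 lower, and of 13 cell cycle exit genes 3 were higher and 1 lower. Lower calls were made for 2 of 13 upper-layer, 6 of 24 migration and guidance, 3 of 21 adhesion (1 higher) and 5 of 21 cytoskeleton genes, so that most members of each list were not called.

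Rbfox1, Bhlhe22 and Calb2 were among the genes lower after P2. Rbfox1 was at 12.6 and 35.8 CPM in members of P12 replicate 1 and P22, against 327 CPM at P2 (log2 difference -3.73 ± 0.51, adjusted p = 5.74e-10). Bhlhe22 was at 21.0 and 41.4 CPM, against 325 CPM (-3.39 ± 0.49, adjusted p = 6.59e-09). Calb2 was at 101 and 27.6 CPM, against 489 CPM (-3.12 ± 0.49, adjusted p = 9.28e-08). Each later library lay below P2 for all 3 genes. Calb2 was detected in 69 of 197 members at P2, 1 of 17 in P12 replicate 1 and 2 of 32 at P22. Cux2, an upper-layer factor, was at 33.7 and 19.3 CPM, against 84.8 CPM (-1.82 ± 0.55, adjusted p = 0.0374, and 0.127 without the highest doublet scores). It is one of the 2 upper-layer genes lower of 13. Of 9 deep-layer genes 1, Foxp2, was higher and 1, Bcl11b, lower, and of 15 neuronal RNA-binding genes 2 were lower.

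Adhesion and guidance genes gave 9 of the lower calls, 6 of 24 guidance genes and 3 of 21 adhesion genes. Epha5, an ephrin receptor, was at 139 and 63.4 CPM in members of P12 replicate 1 and P22, against 483 CPM at P2 (log2 difference -2.40 ± 0.47, adjusted p = 7.11e-05). Cntn2, an axonal contactin, was at 8.41 and 0 CPM, against 60.7 CPM, a pooled ratio of 18.2 lower (4.95 to 152). Clmp, a cell adhesion molecule, was at 4.21 and 0 CPM, against 91.6 CPM, a pooled ratio of 55.0 (9.77 to 2183), and Hs6st2, a heparan sulfate sulfotransferase, at 4.21 and 2.76 CPM, against 123 CPM, a ratio of 37.1 (10.2 to 308). Clmp and Hs6st2 were thus found almost only in the P2 neurons of these 3 libraries. Of 21 cytoskeleton genes 5 were lower, among them Gap43, a growth cone protein, at 37.9 and 44.1 CPM, against 209 CPM (-2.42 ± 0.49, adjusted p = 0.000103). Of 19 synapse genes, 7 transporters and receptors, 13 BMP genes and 9 channel genes none was called.

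Neurod4, Neurog2, Eomes and Pax6, early genes of the lineage, were higher after P2. Neurod4 was at 139 and 102 CPM in members of P12 replicate 1 and P22, against 4.30 CPM at P2 (log2 difference 4.65 ± 0.65, adjusted p = 1.40e-09, and 0.000992 without the highest doublet scores). Neurog2 was at 353 and 306 CPM, against 25.8 CPM (3.57 ± 0.56, adjusted p = 9.28e-08). Eomes was at 1001 and 645 CPM, against 163 CPM (2.22 ± 0.56, adjusted p = 0.00507, and 0.0355 without those scores). Pax6, which precedes Eomes in the pallial lineage, was at 273 and 265 CPM, against 49.0 CPM (2.36 on the log2 scale). All 4 were higher in both later libraries, and they are the 4 higher calls among 17 lineage factors, with Bhlhe22 the 1 lower.

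Of 13 cell cycle exit genes, 3 were higher and 1, Cdkn1c, lower. Ccnd2, a G1 cyclin that newborn neurons keep, was at 1372 and 669.9 CPM in members of P12 replicate 1 and P22, against 102 CPM at P2 (log2 difference 3.19 ± 0.60, adjusted p = 2.44e-05). Btg2, an antiproliferative gene of neurogenic divisions, was at 568 and 436 CPM, against 77.9 CPM (2.58 ± 0.56, adjusted p = 0.000373). Gadd45g, a growth arrest gene, was at 240 and 55.1 CPM, against 18.1 CPM (2.84 ± 0.55). Of 13 S phase and mitosis genes 2 were higher, Hmgb2 at 774 and 402 CPM, against 105 CPM, and Hells at 88.4 and 35.8 CPM, against 2.58 CPM. The later neurons thus held more RNA of Ccnd2, Btg2, Gadd45g, Hmgb2 and Hells. Ccnd2 is on the cell cycle exit list although it is a G1 cyclin, so counts of that list do not measure exit from the cycle. The absence of Mki67 and Top2a in them was fixed by the choice of cells. In P12 replicate 1, all 17 members held Eomes and 12 held Neurog2, while 1 held Neurod2 and 2 held Bhlhe22. Whether the later members had left the cycle was not tested. Egr1, an immediate-early gene, was at 2251 and 1563 CPM, against 254 CPM (2.80 ± 0.59), one of 2 such genes higher of 10, and GABAergic cells held it at 839 and 829 CPM, against 207 CPM.

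Of 9 stem cell and astrocyte markers, 7 were also higher after P2, with a median log2 difference of 2.97. Clu was at 96.8 and 529 CPM in members of P12 replicate 1 and P22, against 15.5 CPM at P2, and at 43.8 CPM at P22 without the highest doublet scores (adjusted p = 0.119). The P22 value of Clu therefore rested on 1 cell. Notch1 was at 126 and 30.3 CPM, against 5.16 CPM (3.70 ± 0.68).

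Age was also fitted within 1 kind of cell, in sums of at least 5 cells, an alternative added after the data were seen. The share with Eomes still differed in Neurod6 cells, at 50.3% at P2 and 100% in P12 replicate 1 and at P22. Neurod6 cells by themselves gave 63 calls, all among the 185, and Slc17a6 cells by themselves 28, of which 23 were among the 185. Neurod6 cells are 183 of the 197 members at P2 and all of these cells were part of the sums behind the 185, so the overlap restates that result and is no separate support for it.

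**Figure D4:**
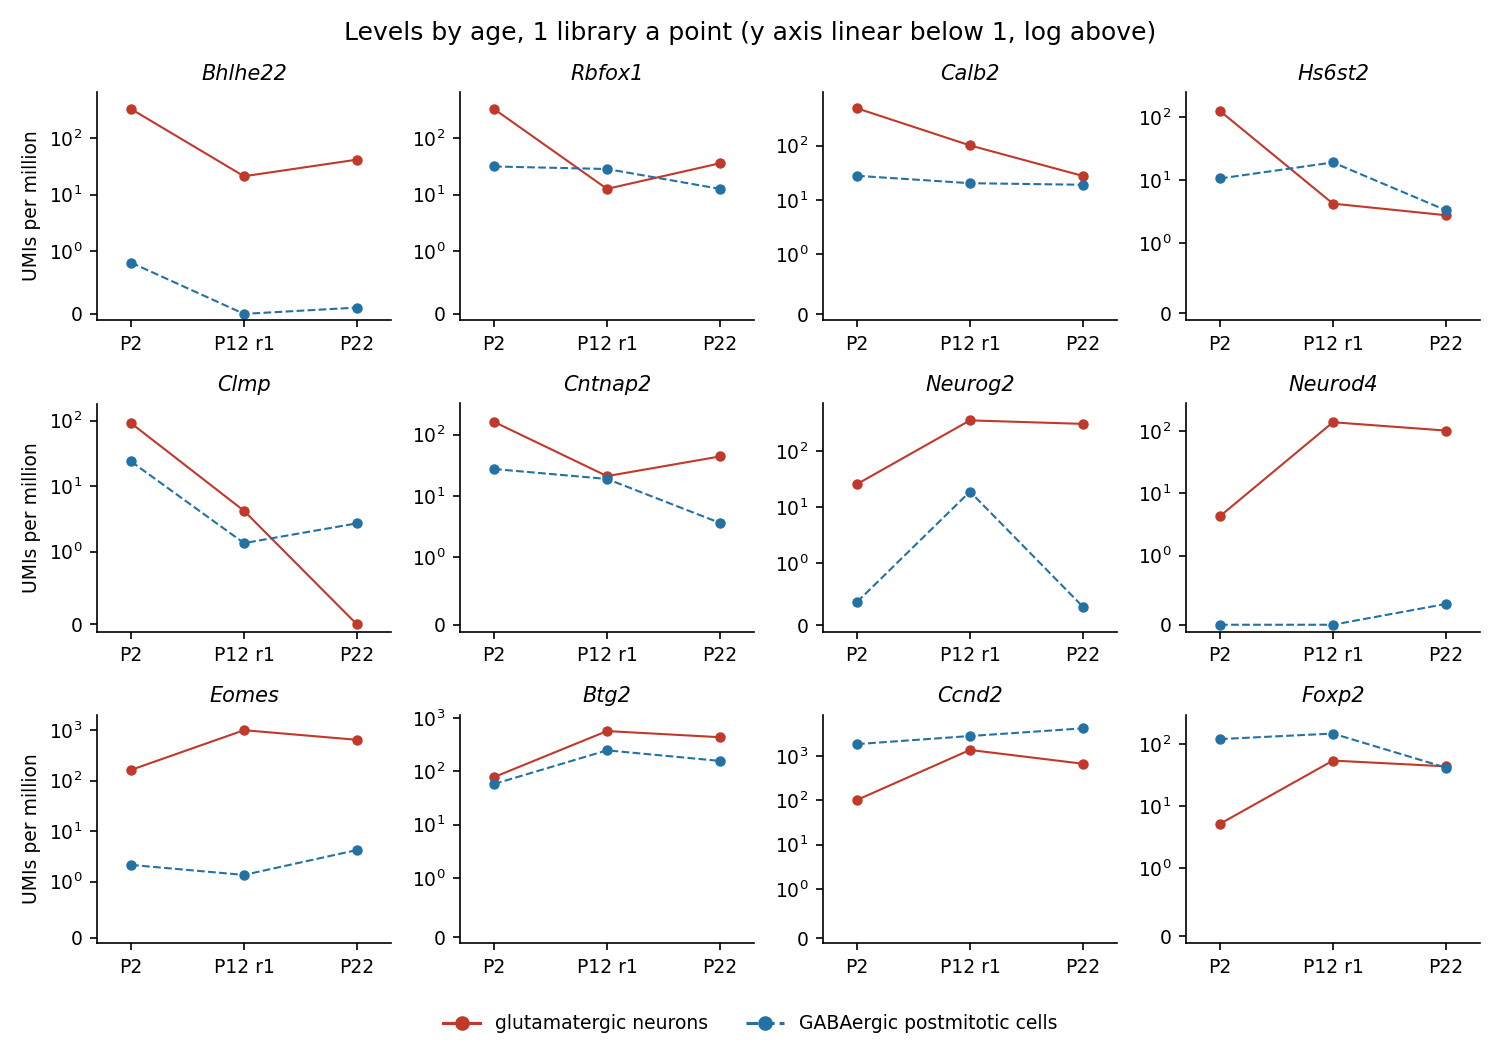
Level (CPM, axis linear below 1 and log above) of 12 genes by age in glutamatergic neurons (red, solid lines) and GABAergic cells (blue, dashed lines), at P2, in P12 replicate 1 and at P22; each point is the UMI sum of 1 library. In glutamatergic neurons Bhlhe22, Rbfox1 and Calb2 lay at 325, 327 and 489 CPM at P2 and at 101 CPM or less later, while Neurog2, Neurod4 and Eomes were higher in both later libraries than at P2.

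Whether the neurons differed with age in another way than GABAergic cells did was tested as the difference of the 2 age differences, an added comparison. It called 39 of 11425 genes (0.341%), 27 higher (0.236%) and 12 lower (0.105%), and 26 of these were among the 185. Hs6st2 and Cntn2 fell further in glutamatergic neurons, as did Rbfox1 (difference -2.79 ± 0.59 on the log2 scale, adjusted p = 0.0228), which GABAergic cells held at 28.4 and 12.6 CPM later, against 31.4 CPM at P2. Arpp21, a cAMP-regulated phosphoprotein, was at 0 and 11.03 CPM in members of P12 replicate 1 and P22, against 97.2 CPM at P2, and at 184 and 62.3 CPM in GABAergic cells, against 127 CPM (-3.63 ± 0.74, adjusted p = 0.0184). GABAergic cells of P12 replicate 1 thus held more Arpp21 than those of P2, and those of P22 less. Foxp2, a forkhead factor, moved the other way, at 54.7 and 44.1 CPM in later members, against 5.16 CPM at P2, and at 150 and 42.1 CPM in GABAergic cells, against 122 CPM (3.83 ± 0.63, adjusted p = 0.00349). DESeq2 called 0 genes in this comparison, with 136 at an unadjusted p under 0.05, against 475 for edgeR.

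**Figure D5:**
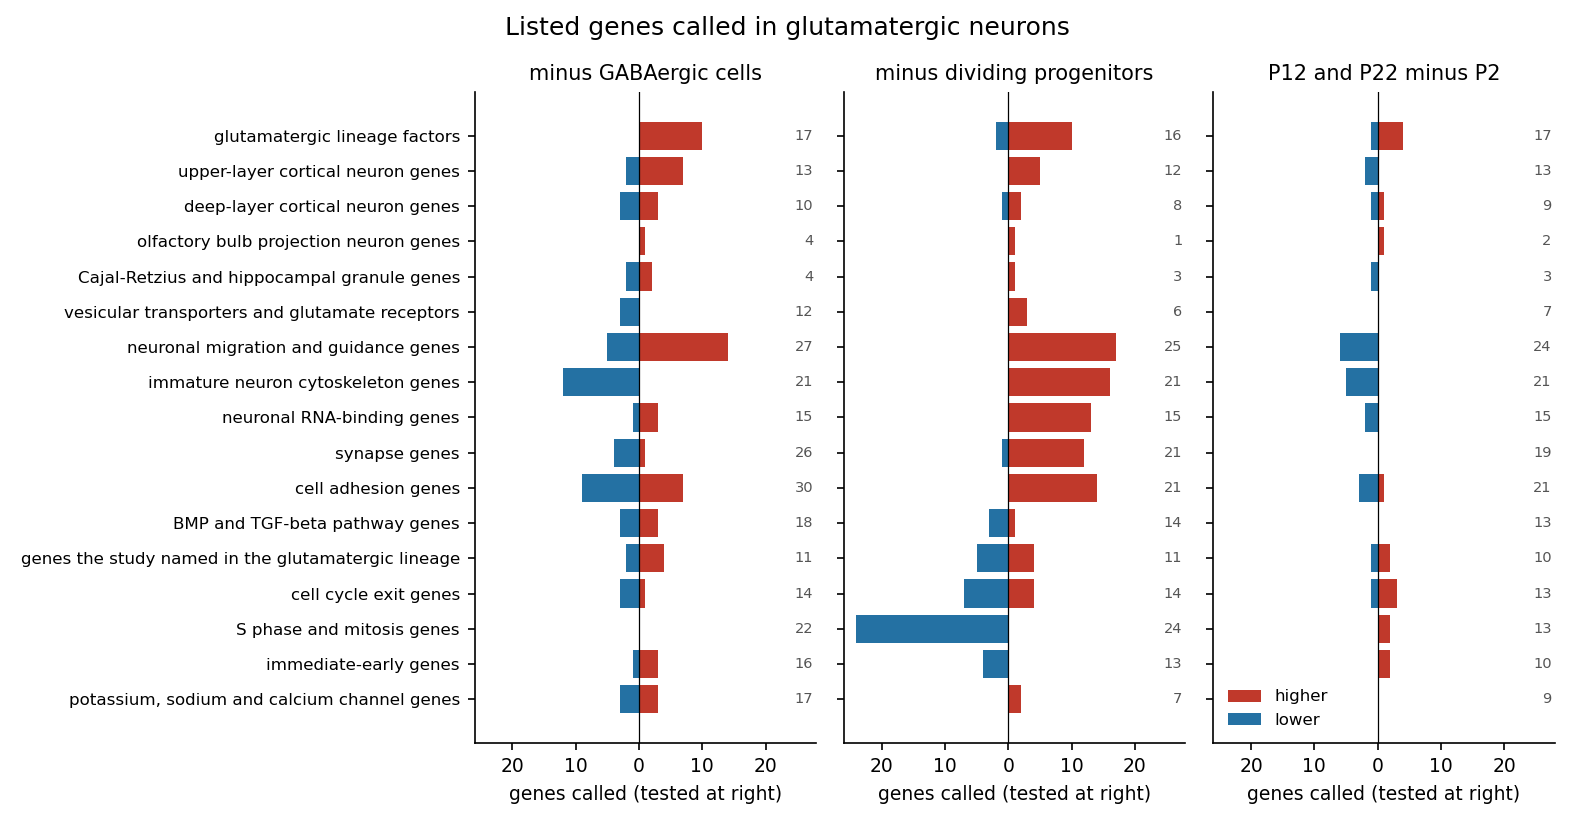
Number of genes called higher (right) and lower (left) in each gene list, for glutamatergic neurons against GABAergic cells, against dividing Eomes progenitors, and for the later ages against P2; the grey number is how many genes of the list were tested. Against progenitors 17 of 25 migration genes were higher and 0 lower, and against GABAergic cells 14 of 27 were higher and 5 lower.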

How the data were processed

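The files hold UMI counts per gene and cell barcode, as deposited without normalization, produced by the authors with Cell Ranger and the GRCm38 (mm10) genome. Per the file headers the version was 5.0.1 at P2 and P22 and 3.1.0 at P12, so only P12 differs in version. Sequencing was 10x Chromium 3′ chemistry, and the counts were also thinned to 5000 UMIs per cell with a fixed seed.

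Cells with 2000 to 8000 genes and under 10% mitochondrial UMIs were kept. Scrublet (scanpy 1.11.5) marked doublets, which were left in except in the alternative without the 5% highest scores. The members and gene lists were chosen with earlier results of these data known. UMIs were summed per library and class with at least 10 cells and tested with edgeR 4.0.16 (R 4.3.3; TMM, filterByExpr, quasi-likelihood test, Benjamini-Hochberg adjustment over all genes tested, threshold 0.05). The library was a block in the comparisons of classes, since classes of 1 library come from the same animals. The 12 genes of the rule were left out, and Eomes also where progenitors were compared. Only P2, P12 replicate 1 and P22 enter tests, because P12 replicate 2 holds 1 member. Each tested library is of another age. The p-values therefore measure a spread in which age and library are mixed, and not the spread between replicate libraries or animals. In the age fit only P12 replicate 1 and P22 give that spread. The tests were checked on simulated counts with known changes.

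Named genes were the 10 with the largest difference in each direction among those called, with the same direction in every library and a mean of at least 50 CPM in the higher class, and up to 3 of each list. Genes of fate and rule genes given as values without a test, such as Reln, were named after their values were seen. So were Gria2 where it was not called and the called genes Lhx2, Sema3c, Nrp1, Rnd2, Rnd3, Cplx2 and Malat1. A class with 0 UMIs was given a floor of 3 counts, and a class with 1 to 3 UMIs a pooled ratio with an exact interval. Alternatives were DESeq2 1.42.0 and its size factors, no filter on low counts, other filters on cells, members or doublets, other minimum cell numbers, no library block, and leaving out each library. Genes whose reads may be shared with a near-identical copy (tubulins, histones) are uncertain in their split. Gene positions came from GENCODE M21 models and promoters from RefSeq.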

Additional observations from a re-analysis of the deposited data

Results flagged for a closer look

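Among the genes that the naming rule picked for the age comparison, 9 differed with age in glutamatergic neurons in another way than in GABAergic cells. They were called by the interaction term of edgeR's quasi-likelihood test and also within the neurons. Other genes called in both lay outside that pick, such as Dach1 and Lrrn3 (higher) and Osbpl6 and Shtn1 (lower). The 9 therefore do not show how all such genes divide by direction. DESeq2 called none of the 9 interactions, and the other alternatives run for the interaction called all 9. Within the neurons, the call of Foxp2 was lost under the stricter member rule (adjusted p = 0.892) and without the highest doublet scores (0.0788), and DESeq2 did not call Foxp2, Cntn2, Arpp21, Gadd45g, Plxna2 or Tenm1. In Neurod6 cells alone Cntn2 (adjusted p = 0.830) and Arpp21 (0.0545) were not called, and in Slc17a6 cells alone Gadd45g (0.900), Plxna2 (0.517) and Tenm1 (0.260) were not. The causes were not tested.

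Of these, 6 were lower later in glutamatergic neurons relative to GABAergic cells. The difference of the age differences was -4.99 ± 0.88 (SE, log2 scale) for Hs6st2 (adjusted p = 0.00555), -4.60 ± 0.91 for Cntn2 (adjusted p = 0.0152) and -3.63 ± 0.74 for Arpp21 (adjusted p = 0.0184). It was -2.80 ± 0.53 for Calb2 (adjusted p = 0.0103), -2.79 ± 0.59 for Rbfox1 (adjusted p = 0.0228) and -2.66 ± 0.45 for Plxna2, a semaphorin coreceptor (adjusted p = 0.00387). Hs6st2 and Cntn2 had 1 to 3 UMIs in the later neurons, so that their fitted size depends on the prior count.

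The other 3 were higher later relative to GABAergic cells. The difference was 3.83 ± 0.63 for Foxp2 (adjusted p = 0.00349), 3.71 ± 0.71 for Tenm1, a teneurin adhesion molecule (adjusted p = 0.0124), and 3.00 ± 0.49 for Gadd45g (adjusted p = 0.00349). Tenm1 was at 96.8 and 160 CPM in neurons of P12 replicate 1 and P22, against 20.7 CPM at P2, and at 28.4 and 6.01 CPM in GABAergic cells, against 23.5 CPM.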

How the results depend on the processing

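Of 2090 values of named genes under alternatives, 1867 kept their direction and call, 219 kept their direction without the call, and 4 turned round, none of the 4 a call. These were Eomes between Neurod6 and Slc17a6 cells, -0.051 with DESeq2 and -0.21 with at least 5 cells per sum, and Calb2 there, 2.51 and 0.28. Against GABAergic cells the number of calls was 1419 with no filter on low counts, 1536 with at least 20 cells per sum, 373 with no replicate block, and 524 to 1536 when 1 library was left out. Against progenitors it was 1014 with DESeq2, 653 with no replicate block, and 1388 to 1547 when 1 library was left out. Between Neurod6 and Slc17a6 cells it was 12 with DESeq2 size factors, 1 with DESeq2, 15 with no filter, 1 without the highest doublet scores, 2 with at least 5 cells per sum and 0 with no replicate block (44 at an unadjusted p under 0.05). With age it was 28 with DESeq2, 88 without the highest doublet scores, 63 in Neurod6 cells alone and 28 in Slc17a6 cells alone. For the interaction it was 77 with DESeq2 size factors, 0 with DESeq2, 74 with no filter, 61 with 2500 to 7500 genes, 65 under the stricter member rule and 107 without the highest doublet scores. The causes were not tested. The member share of P12 replicate 2 was 0% under the stricter rule, and the Neurod6 share at P2 was 85.4% after thinning. Leaving out a library was not possible for age, for the interaction or for the subtypes. Neither age nor the interaction could be fitted with at least 20 cells per sum. The subtype comparison was not run with other filters on cells or members or with at least 20 cells. In P12 replicate 1, 1 UMI of the members is 4.21 CPM, which limits low genes there.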

Other observations

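AC160336.1 was at 2.58 CPM in glutamatergic neurons at P2, 219 CPM in P12 replicate 1 and 5.51 CPM at P22, and at 3.83, 274 and 3.81 CPM in GABAergic cells. In both kinds of neuron its level was highest in P12 replicate 1. The Cell Ranger version of the file headers was 3.1.0 for P12 and 5.0.1 for the others. Version, age, library and animals cannot be told apart there, and the cause was not tested. AC160336.1 is among the genes called higher with age. Xist was at 332 CPM in the neurons of P2 and at 0 in those of P12 replicate 1 and P22, and is among the 106 genes lower with age. The methods name a female at P2, and the labels do not.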
